A study of Mus musculus with 6 samples.

Results

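The IL-6 family cytokines and their receptors were taken as a list of 8 genes, namely the ligands Il6, Lif and Il11, the ligand-binding receptors Il6ra and Il11ra1, and the signalling receptors Il6st, Lifr and Osmr. A gene counted as measured where the platform annotation gave its symbol as the single gene of a probe set, which held for 7 of the 8, with 14 probe sets, out of 12393 genes measured in all. Il11ra1 was not analysed here. The RNA came from mouse embryonic fibroblasts (MEFs), mesenchymal cells grown from embryos, and was read on oligonucleotide arrays, 1 sample to an array. The cells were wild type in both groups. One group was starved for 6 h before RNA extraction (3 arrays), and the control group was kept in normal medium (3 arrays). Which nutrients or serum components the starvation medium lacked is not stated in the labels. The titles call the arrays of each group biological replicates but do not say whether these were separate cultures or embryos, so p-values measure only the spread between these arrays, and part of it may be technical.

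Cytokines of the IL-6 family signal through a shared receptor chain, gp130, which is encoded by Il6st. Interleukin-6 and interleukin-11 first bind a receptor of their own and then bring gp130 chains together, whereas leukaemia inhibitory factor joins gp130 to a further signalling chain, the LIF receptor, and oncostatin M joins it to the OSM receptor. The paired chains activate JAK kinases, which phosphorylate STAT3, and STAT3 induces its own feedback inhibitor Socs3. Fibroblasts are known producers of interleukin-6, and embryonic fibroblasts are used as feeder cells for stem cells that depend on LIF.

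Of the 7 measured genes 1 rose and 1 fell in starved cells. Lifr, the signalling chain that binds LIF, was 1.60-fold higher, and Il6, the founding cytokine of the family, was 1.45-fold lower. The other 5 genes, among them the shared chain Il6st, did not pass the test (limma, Benjamini-Hochberg over all genes, threshold 0.05 on the adjusted p). Calls therefore covered 28.6% of the measured family, against 44.1% of all genes (22.1% higher and 22.0% lower), so the family was not called more often than genes at large. The groups of arrays did not overlap for 3 of the 7 genes (42.9%), against 54.0% of all genes.

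The sequences before the transcript starts of Il6 and Lifr, the genes that changed, are shown for their motif content. They are the 250 bases upstream of the starts that RefSeq annotates on GRCm38.p6, read 5′ to 3′ on the gene's strand, and capitals mark matches. The Il6 window is chr5:30012864-30013113 (+ strand), and the Lifr windows are chr15:7129322-7129571 and chr15:7140292-7140541 (both + strand).
Il6: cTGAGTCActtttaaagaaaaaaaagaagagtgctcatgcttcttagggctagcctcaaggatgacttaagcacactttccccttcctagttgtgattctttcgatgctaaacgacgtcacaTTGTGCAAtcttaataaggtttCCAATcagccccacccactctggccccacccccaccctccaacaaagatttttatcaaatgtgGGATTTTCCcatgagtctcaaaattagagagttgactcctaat
Lifr, window 1: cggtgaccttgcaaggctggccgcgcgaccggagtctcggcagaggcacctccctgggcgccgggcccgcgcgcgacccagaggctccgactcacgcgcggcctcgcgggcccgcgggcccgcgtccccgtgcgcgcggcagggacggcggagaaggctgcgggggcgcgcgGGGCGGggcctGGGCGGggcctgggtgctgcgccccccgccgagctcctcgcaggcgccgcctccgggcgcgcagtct
Lifr, window 2: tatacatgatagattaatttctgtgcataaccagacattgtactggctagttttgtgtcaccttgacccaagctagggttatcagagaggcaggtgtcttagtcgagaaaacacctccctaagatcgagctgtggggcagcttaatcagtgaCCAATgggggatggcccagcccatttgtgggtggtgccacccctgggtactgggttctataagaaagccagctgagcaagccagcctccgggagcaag

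Windows were found for all 7 measured genes, 9 in number, and searched on both strands for 8 motifs. These were an NF-kB core GGNNTTTCC, C/EBP TTGNNCAA, AP-1 TGANTCA, CRE TGACGTCA, STAT TTCNNNGAA, the TATA box TATAAA, the CCAAT box and the Sp1 box GGGCGG. The Il6 window held an NF-kB match, GGATTTTCC, from 43 to 35 bases before the start, a C/EBP match, TTGTGCAA, an AP-1 match, TGAGTCA, and a CCAAT box. Among 32851 such windows of RefSeq transcripts, 4.93% held the NF-kB core, 5.65% the C/EBP motif and 6.75% the AP-1 motif. An AP-1 match was also present in the Lif window and in 1 of the Il11 windows. None of the receptor windows matched the NF-kB, C/EBP or AP-1 motif, and no window of the 7 genes matched the CRE, STAT or TATA letters. The first Lifr window held Sp1 boxes, found in 32.7% of all windows, and the second a CCAAT box, found in 33.8%. These matches describe the letters of the window and were not tested for binding.

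Levels are given as log2 array signals, so that a difference of 1 is a doubling. The authors' normalization gave each array nearly the same distribution, with array medians between 6.73 and 6.81. A gene with several probe sets is represented by the brightest. The other probe sets are given for each family member, and for further genes where one of them had another call. Signals of different probe sets are not on a common scale, so the genes are compared only by their differences, starved minus control. The 24 poly-A spike-in probe sets lay 0.43 higher on the starved arrays and the 18 hybridization spike-in probe sets 0.19 higher. Centring the arrays on the poly-A spike-ins moved the median of all genes from −0.048 to −0.474, and values on this scale are given below as values on the poly-A scale. Directions are otherwise relative to the measured genes as the deposited values scale them.

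**Figure D1:**
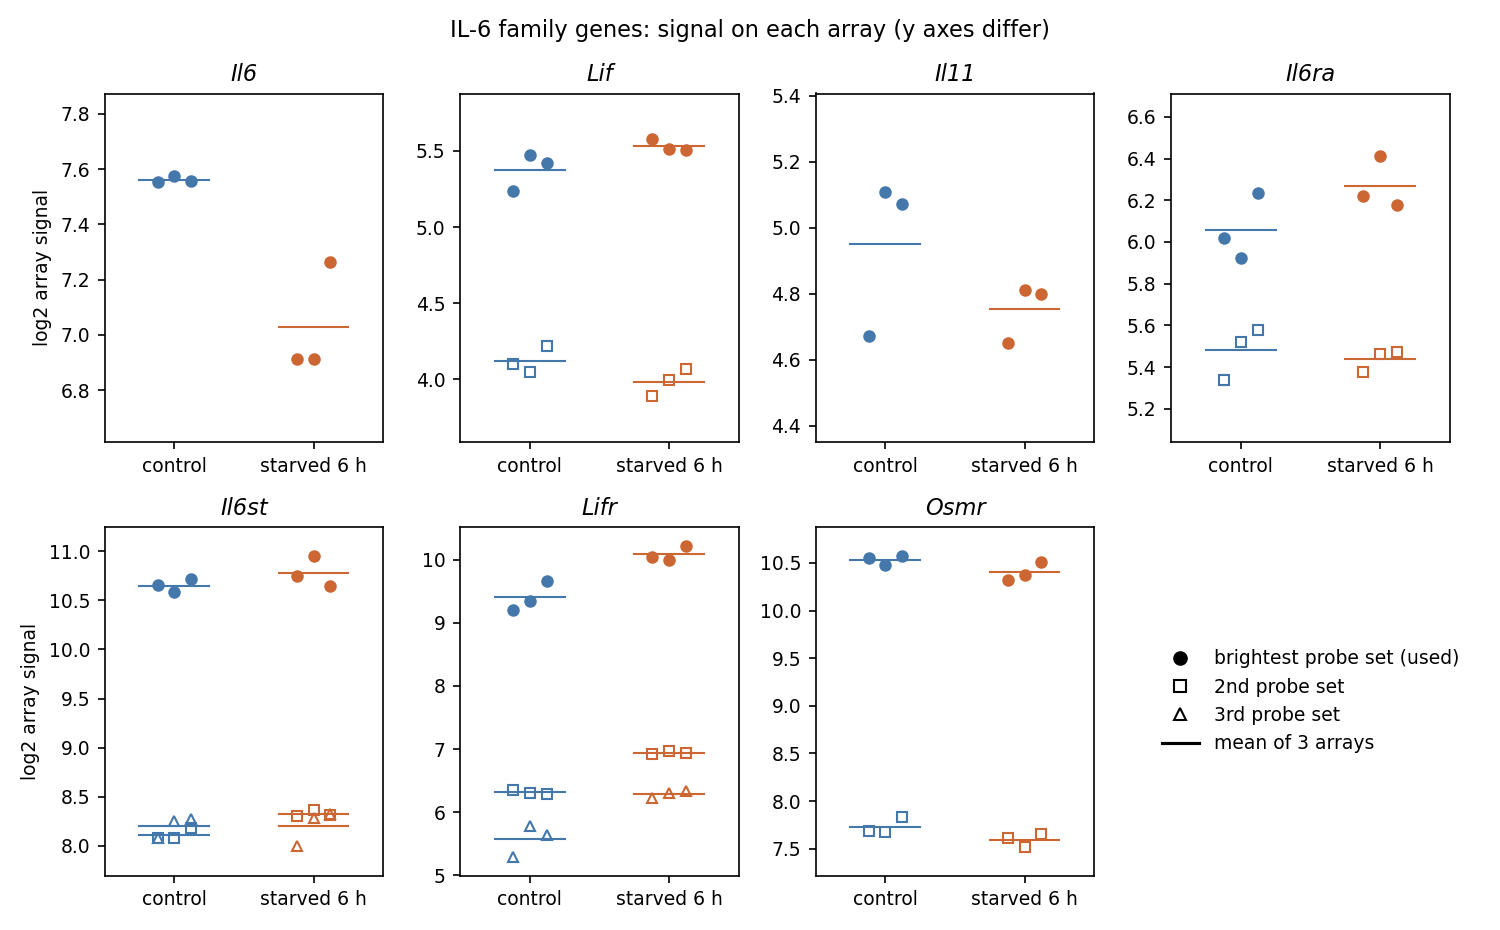
Log2 array signal (y axis, with a different range in each panel) of the 7 measured IL-6 family genes on the 3 control and 3 starved arrays, with filled points for the brightest probe set, open points for the others and lines for group means. The starved arrays lie above the control arrays for all 3 Lifr probe sets and below them for Il6.

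Among the ligands, Il6 fell. Its single probe set read 7.55, 7.57 and 7.56 on the control arrays and 6.91, 6.91 and 7.26 on the starved arrays. The groups did not overlap, and starved replicate 3 lay nearer to the control arrays than the other starved arrays did. The mean went from 7.56 ± 0.011 to 7.03 ± 0.20 (SD, n = 3), a difference of −0.53 (SE 0.10, 95% CI −0.75 to −0.31, limma adjusted p = 0.00151). The signal thus fell by 30.8%. The fall was present in each setting tried, from −0.47 without starved replicate 1 to −0.96 on the poly-A scale, and passed the test in each. Some settings, such as the variance model and the replicate block, could not change the difference itself.

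Lif, which keeps embryonic stem cells undifferentiated, gave no call. The brighter of its probe sets read 5.23, 5.48 and 5.42 in control and 5.58, 5.51 and 5.50 in starved cells. Each starved array was above each control array, but by little, and the difference of 0.15 (SE 0.08, 95% CI −0.025 to 0.33) had an adjusted p of 0.148 in limma. The dimmer probe set lay on the other side of 0, at −0.14 (adjusted p = 0.212 among all probe sets). The sign of Lif also turned with centring on either spike-in set, to −0.27 with the poly-A and −0.033 with the hybridization spike-ins.

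Il11, a cytokine that fibroblasts can secrete and respond to, gave no call either. Its single probe set read 4.67, 5.11 and 5.07 in control and 4.65, 4.81 and 4.80 in starved cells. The ranges overlapped through control replicate 1, which was the lowest control array by a wide margin. The difference was −0.20 (SE 0.11, 95% CI −0.45 to 0.061, limma adjusted p = 0.196). Without control replicate 1 it became −0.34 and passed the test (adjusted p = 0.0150), against adjusted p between 0.225 and 0.493 without any other single array. Lif and Il11 had signals below the array medians, as had Il6ra and the dimmest Lifr probe set, which are described below. The Lifr probe set second in brightness was below them on the control arrays only. No detection calls were used, so whether these probe sets read above background was not tested.

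Among the receptors, Il6ra, which binds interleukin-6 at the cell surface and can be shed as a soluble form, did not pass. The brighter of its probe sets read 6.02, 5.92 and 6.24 in control and 6.22, 6.41 and 6.18 in starved cells. The ranges overlapped, with control replicate 3 above starved replicates 1 and 3. The difference was 0.21 (SE 0.10, 95% CI −0.0082 to 0.43, limma adjusted p = 0.109), and without control replicate 3 it was 0.30 and passed (adjusted p = 0.0371). On the poly-A scale the difference was −0.21. The dimmer probe set was at −0.042 (adjusted p = 0.718 among all probe sets).

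Il6st, the gp130 chain that all measured ligands of the list use, had no call on its brightest probe set. That probe set read 10.65, 10.58 and 10.71 in control and 10.75, 10.95 and 10.65 in starved cells. The starved arrays were the more scattered ones, and starved replicate 3 was inside the control range. The difference was 0.13 (SE 0.09, 95% CI −0.066 to 0.33, limma adjusted p = 0.258). The second in brightness, which can bind several transcripts, read 8.08, 8.08 and 8.18 in control and 8.30, 8.36 and 8.32 in starved cells. Its groups did not overlap, and its difference of 0.21 passed among all probe sets (limma adjusted p = 0.0373). The third was at 0.0004 (adjusted p = 0.998), so the 3 probe sets gave different answers for gp130. On the poly-A scale the brightest probe set lay at −0.30 (adjusted p = 0.00985), and with the hybridization spike-ins at −0.056.

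In the deposited values Lifr had the largest difference of the family, but that of Il6 was the larger with either set of spike-ins and without starved replicate 3 (−0.65 against 0.61). Its brightest probe set read 9.21, 9.36 and 9.67 in control and 10.04, 10.01 and 10.22 in starved cells. The lowest starved array was above the highest control array. The mean went from 9.41 ± 0.24 to 10.09 ± 0.12 (SD, n = 3), a difference of 0.68 (SE 0.12, 95% CI 0.42 to 0.94, limma adjusted p = 0.000947). By absolute difference Lifr stood at position 1343 among the 12393 genes and Il6 at 2094.

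The 3 Lifr probe sets moved alike. The second in brightness read 6.35, 6.31 and 6.29 in control and 6.92, 6.96 and 6.93 in starved cells, a difference of 0.62 (SE 0.07, limma adjusted p = 9.20e-05 among all probe sets). The dimmest read 5.29, 5.78 and 5.64 in control and 6.22, 6.29 and 6.34 in starved cells, a difference of 0.72 (SE 0.12, adjusted p = 0.00114). They read the same RNA samples and are not further replicates. Without single arrays the difference of the brightest probe set ran from 0.58 to 0.81 and passed each time. It did not pass on the poly-A scale (0.25, adjusted p = 0.0707), whereas with the hybridization spike-ins it did (0.49, adjusted p = 0.00280).

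Osmr, the chain that makes gp130 a receptor for oncostatin M, did not pass. The brighter of its probe sets read 10.55, 10.47 and 10.58 in control and 10.33, 10.37 and 10.51 in starved cells. Starved replicate 3 was inside the control range, and the other starved arrays were below it. The difference was −0.13 (SE 0.08, 95% CI −0.30 to 0.040, limma adjusted p = 0.197). The dimmer probe set gave nearly the same difference, −0.13 (adjusted p = 0.211), with groups that did not overlap. Centring on the spike-ins gave called differences, −0.56 with the poly-A set (adjusted p = 0.000127) and −0.32 with the hybridization set (adjusted p = 0.00766).

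**Figure D2:**
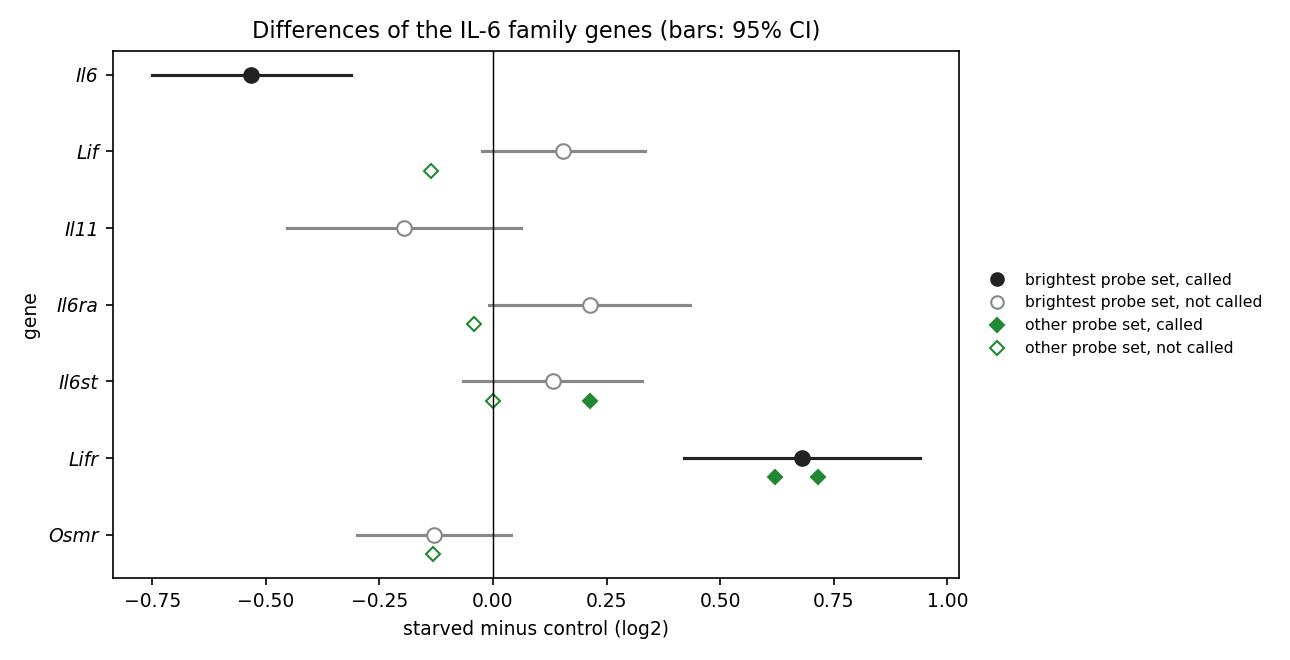
Starved minus control difference (x axis, log2) of each measured IL-6 family gene, with round points and 95% confidence intervals for the brightest probe set and diamonds for other probe sets, filled where called. The intervals of Il6 and Lifr lie away from 0, those of the other 5 genes include it, and a dimmer Il6st probe set is called at 0.21.

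Tested probe set by probe set, 5 of the 14 were called, 4 higher and 1 lower, which is 35.7% against 40.9% of all probe sets. The calls were the 3 Lifr probe sets, the Il6 probe set and 1 of 3 for Il6st. On the poly-A scale 0 of the 7 genes rose and 5 fell (Il6, Lif, Il11, Il6st and Osmr), while 860 of all genes rose and 9321 fell. With the hybridization spike-ins 1 of the 7 rose and 3 fell, while 1673 of all genes rose and 6102 fell. Il6 thus fell under each scaling, and the call for Lifr was the only rise among the 7 genes as the brightest probe sets give them.

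**Figure D3:**
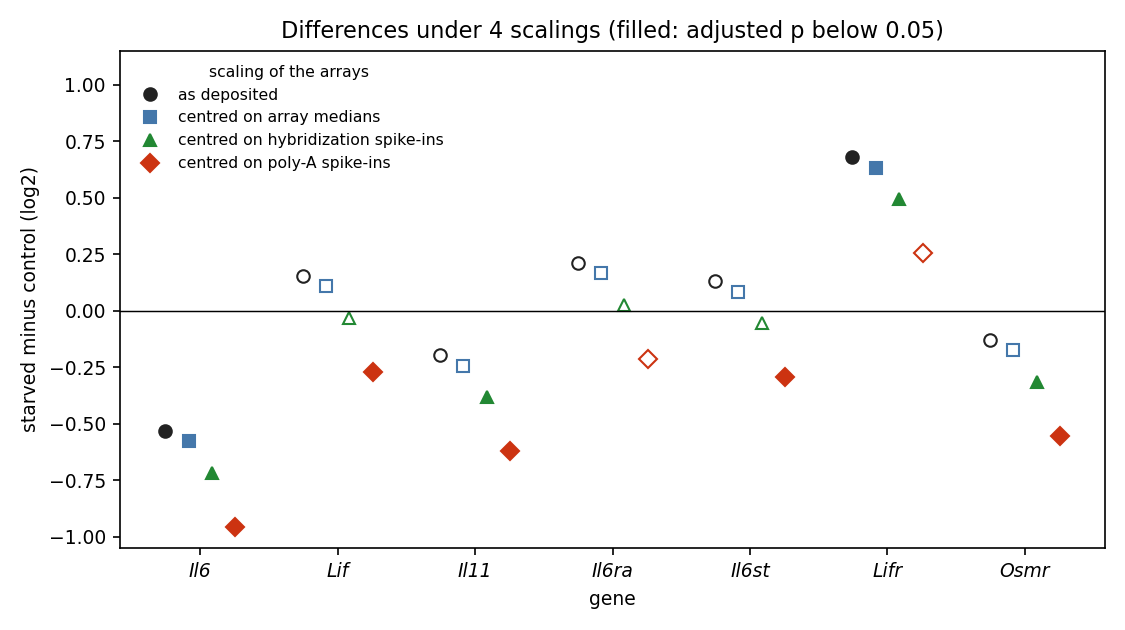
Starved minus control difference (y axis, log2) of each measured IL-6 family gene under 4 scalings of the arrays, filled where the adjusted p is below 0.05. Il6 stays below 0 and called, from −0.53 to −0.96, Lifr stays above 0 but is not called with the poly-A spike-ins, and Lif, Il6ra and Il6st cross 0.

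The profile of Lifr over the 6 arrays was closest to those of Ptn, a secreted growth factor, Mettl7a2, read by a probe set that can bind several transcripts, and Fam76a. Likeness was the Euclidean distance between log2 profiles centred on the control mean, which was 0.12, 0.19 and 0.22. Having been picked for nearness to a rising profile, they were at 0.71, 0.71 and 0.69, which is no separate result. The mean of the Fam76a probe sets was lower, at 0.42, and on the poly-A scale Ptn was not called (0.28, adjusted p = 0.0551), like Lifr. Ptn read 7.97, 8.04 and 8.35 in control and 8.73, 8.71 and 9.04 in starved cells, with replicate 3 the highest of each group, as for Lifr. The choice by nearness favoured this shared order and the shared loss of the call, so neither is a separate result.

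Further ligands and receptors of the family gave a single call. Only 3 of 8 further ligands were measured, and no call was made among them, with Clcf1 at 0.084 (adjusted p = 0.369), Ctf1 at 0.077 and Ebi3 at 0.029. Clcf1 is a ligand of the CNTF receptor. Among the 3 measured of 4 further receptors, Il31ra fell by 0.21 (limma adjusted p = 0.0416), a call that was lost in several settings, among them a further quantile normalization (−0.15), the robust variance model (adjusted p = 0.103), the replicate block (adjusted p = 0.0696), the test of each probe set (adjusted p = 0.0518), and leaving out control replicate 2 or 3 or starved replicate 2 or 3. Cntfr (−0.21) and Il27ra (0.14) did not pass. All 3 further ligands and all 3 further receptors were called lower on the poly-A scale, with medians of −0.35 and −0.64. So were 9321 of all 12393 genes, with a median of −0.474. Osm, the ligand of Osmr, and Cntf were not analysed here.

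Downstream of gp130, 11 kinases, STATs and adaptors were measured. Of these 6 rose and 1 fell, 4 gave no call, and the median difference was 0.42, against −0.048 over all genes. Calls covered 63.6% of this list, against 44.1% of all genes. On the poly-A scale 2 rose and 5 fell, and the median was −0.0053. Among all 12393 genes 860 rose and 9321 fell on that scale, with a median of −0.474. Gab1, a docking adaptor, rose most, by 1.51, and all 3 of its probe sets were called higher. Tyk2, a JAK kinase, rose by 0.60, a call lost on the poly-A scale (0.17). Stat3, the main transcription factor of the pathway, read 9.47, 9.56 and 9.57 in control and 10.04, 10.02 and 9.84 in starved cells. Its groups did not overlap, and the difference of 0.44 passed (SE 0.08, limma adjusted p = 0.00124), but its dimmer probe sets gave no call (0.22 and −0.034). Averaging the probe sets also ended the call (0.21, adjusted p = 0.0564), and on the poly-A scale Stat3 was at 0.010.

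The kinases and the phosphatase that act on gp130 itself gave mixed readings. Jak1 was at −0.068 (adjusted p = 0.536), Ptpn11, a phosphatase recruited to gp130, at 0.050 (adjusted p = 0.572), and Jak2 at 0.19 (adjusted p = 0.0837). The dimmer probe set of Jak2 was called higher (0.95), and so was the mean of both (0.57, adjusted p = 0.000133). On the poly-A scale the brightest probe sets of Jak1 (−0.49), Ptpn11 (−0.38) and Jak2 (−0.24) were all called lower. With the hybridization spike-ins Jak1 was called lower too (−0.26), but Ptpn11 (−0.14) and Jak2 (−0.0004) were not called. The adaptors Sos1 (0.77) and Grb2 (−0.41) were called, but each had a dimmer probe set called the other way, at −0.30 for Sos1 and 0.36 for Grb2. The third Sos1 probe set was not called (0.19).

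Inhibitors of the pathway moved in either direction: 4 of 12 rose and 6 fell, with 2 not called and a median difference of −0.21. Calls covered 83.3% of this list, against 44.1% of all genes. The counts on the poly-A scale were 2 higher and 8 lower, against 860 higher and 9321 lower of all 12393 genes. Socs3, the feedback inhibitor that binds gp130, read 8.41, 8.53 and 8.63 in control and 7.90, 8.06 and 8.00 in starved cells. The groups did not overlap, and Socs3 fell by 0.54 (SE 0.08, limma adjusted p = 0.000402), with all 3 probe sets called lower. Socs2, an inhibitor best known from growth hormone signalling, fell by 1.75, and the phosphatase Dusp1 by 0.48. The STAT-binding proteins Pias3 (1.09) and Pias1 (0.70) rose, with the second Pias3 probe set at 0.44. Ptpn2, a phosphatase of JAKs and STATs, was called at 0.39 on its brightest probe set and at 0.31 on the second. The other 2 of its 4 probe sets were called lower (−1.13 and −0.82) but were dimmer, with mean signals of 5.32 and 3.78 against 10.04 for the brightest. On the poly-A scale Ptpn2 was at −0.033.

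**Figure D4:**
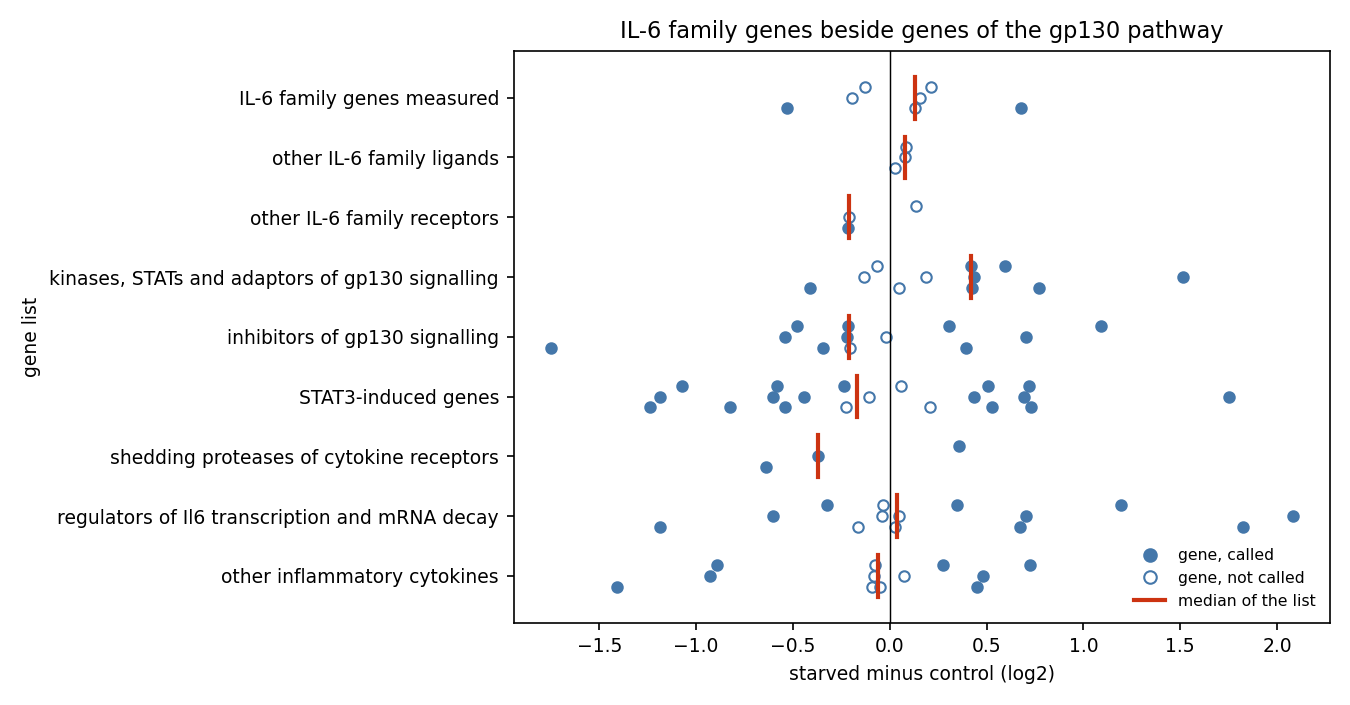
Starved minus control difference (x axis, log2) of each gene in the IL-6 family and in 8 lists of related genes (y axis), filled where called, with a red line at each list's median. Kinases, STATs and adaptors have a median of 0.42, while the inhibitors and the STAT3-induced genes spread to both sides of 0.

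Genes that STAT3 can induce also divided. There were 7 rises and 9 falls among 20 such genes, and 4 gave no call. Calls covered 80% of this list, against 44.1% of all genes, and the median difference was −0.17. With poly-A centring 4 were higher and 12 lower, with a median of −0.60. The same centring gave 860 higher and 9321 lower of all 12393 genes, with a median of −0.474. The kinase Pim1 rose by 1.75, from 7.65 ± 0.019 to 9.40 ± 0.12 (SD, n = 3), the acute-phase gene Serpina3n by 0.73 and the protease inhibitor Timp1 by 0.69. Cyclin D1, Ccnd1, fell by 1.24, Cebpd by 1.18 and the angiogenic factor Vegfa by 1.07. The list shares Socs3 and Stat3 with the lists above. Mcl1, named because its probe sets disagreed, was called lower on the brightest and higher on 4 of its 6 probe sets.

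The proteases that release soluble Il6ra fell. Adam17 read 9.58, 9.52 and 9.50 in control and 9.15, 9.17 and 9.16 in starved cells, a fall of 0.37 (SE 0.07, limma adjusted p = 0.00124). Adam10 fell by 0.64 (adjusted p = 0.000203). Rhbdf1, which helps Adam17 mature, was called at 0.36, but was at −0.068 on the poly-A scale.

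Known regulators of Il6 transcription and of its mRNA's decay moved in both directions beside the fall of Il6. There were 6 rises and 3 falls among 14 measured genes, and 5 gave no call. Calls covered 64.3% of this list, against 44.1% of all genes, and the median difference was 0.037. The balance turned on the poly-A scale, to 5 higher and 8 lower with a median of −0.39. This was not particular to the list, since 860 of all 12393 genes were higher there and 9321 lower, with a median of −0.474. The NF-kB subunit Relb rose by 2.08 and Zfp36, which promotes decay of cytokine mRNAs, by 1.20. Nfkb2, a partner of Relb, was called at 1.82 on its brightest probe set, but its other probe set was at −0.068 (adjusted p = 0.690) and the mean of both at 0.88. Relb read 6.86, 6.91 and 6.96 in control and 9.18, 9.08 and 8.72 in starved cells. Starved replicate 3, the starved array with the highest Il6, was the lowest starved array for Relb. This was not particular to Relb. The same array was also the lowest starved one for Nfkb2 (8.98), Gab1 (9.53) and Pim1 (9.27). It was the highest for Il18, but the starved arrays hardly differed there (8.24, 8.23 and 8.27). A link between Relb and Il6 was not tested. The C/EBP factors Cebpd and Cebpb fell by 1.18 and 0.60 and Fos, an AP-1 subunit, by 0.33. Nfkbia, an inhibitor of NF-kB, was called at 0.35, though it was at −0.081 on the poly-A scale and the dimmest of its probe sets was not called (0.13), and Zc3h12a, a nuclease that degrades Il6 mRNA, was at 0.026 (adjusted p = 0.773).

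Other inflammatory cytokines gave 4 rises and 3 falls among 12 measured genes, and 5 gave no call. Calls covered 58.3% of this list, against 44.1% of all genes, and the median difference was −0.063. This balance turned too, to 1 higher and 8 lower on the poly-A scale and 3 higher and 5 lower with the hybridization spike-ins. All genes turned likewise, to 860 higher and 9321 lower on the poly-A scale and 1673 and 6102 with the hybridization spike-ins. Those that fell in the deposited values were the alarmin Il33 (−1.41) and the chemokines Ccl2 (−0.93) and Cxcl1 (−0.89). Cxcl1 read 12.30, 12.32 and 12.35 in control and 11.45, 11.34 and 11.50 in starved cells. Il18 (0.72), Tslp (0.48) and Il1rn (0.45) were the rises with the smallest adjusted p, of which Tslp (0.056) and Il1rn (0.027) lost their calls on the poly-A scale. Tslp was dim (3.36 in control and 3.84 in starved cells), and whether it read above background was not tested. Of the dimmer Il1rn probe sets, 1 was not called (0.22). Il1b, Il1a, Tnf, Csf2 and Csf3 did not pass, with values between −0.094 and 0.072.

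Markers of fibroblasts and of other cell types were compared between the groups, each list with itself. The summed linear signal of 10 fibroblast markers was 66861 to 68577 in control and 79659 to 80357 in starved arrays. Of these markers 6 were called higher and 2 lower, which is 80%, against 44.1% of all genes. Some dimmer probe sets had another call: Pdgfra, counted as higher, had 1 called lower (−0.40), and Col1a2, not called, had 1 called higher (0.36). Of the genes called, Pdgfrb (−0.10), Fn1 (0.16) and Vim (0.30) each had a dimmer probe set without a call. Of the 10 fibroblast markers, 0 were higher and 5 lower on the poly-A scale, against 860 higher and 9321 lower of all 12393 genes. Thy1, a marker of many fibroblasts, fell from a mean of 4.99 to 4.60. The 12 macrophage and blood cell markers summed to 502 to 525 in control and 432 to 465 in starved arrays. Cd14 was the brightest of them (7.75 in control and 7.29 in starved cells) and so weighed most in this sum. Of the 12, 1 was higher (Cd68, 0.44), 2 were lower (Cd14, −0.46, and Coro1a, −0.24) and 9 gave no call. That is 25% called, against 44.1% of all genes. Cd68 was at 0.015 on the poly-A scale and not called there, and the call for Coro1a was lost when any single array other than starved replicate 1 was left out. One of the dimmer Coro1a probe sets was not called (−0.16). On the poly-A scale 0 of the 12 markers were higher and 11 lower, and with the hybridization spike-ins 0 and 7. The hybridization spike-ins gave 1673 higher and 6102 lower of all genes. The leukocyte antigen Ptprc stood at 3.16 and 3.19 and the macrophage antigen Adgre1 at 3.38 and 3.27, in control and starved cells. In bulk RNA, fewer cells of a type and less RNA per cell cannot be told apart, and the part of these markers in the fall of Il6 was not tested. Of 6 endothelial markers 1 fell (Pecam1, −0.27, a call lost when any single array other than starved replicate 2 was left out and in the test of each probe set), of 6 epithelial markers 1 rose (Cdh1, 0.91), and of 6 skeletal muscle markers 1 rose (Acta1, 1.37) and 1 fell (Ckm, −0.30). Cdh1 (3.44 in control and 4.36 in starved cells) and Pecam1 (3.64 and 3.37) were dim, and whether they read above background was not tested. The poly-A scale gave 6 endothelial, 5 epithelial and 5 muscle markers lower, with 0, 1 and 1 higher, beside 9321 of all genes lower and 860 higher.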

How the data were processed

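The authors deposited log2 signals, a single value for each probe set on each array, made with affy and RMA according to the submitters' processing notes. No label names their versions. Such values are background-corrected and quantile-normalized, which removes shifts in total RNA and compresses folds of dim genes. Precision is limited by the number of arrays.

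Gene names came from the platform annotation. Of 22690 probe sets, 20380 had 1 gene, 691 several, 1555 none listed, and 64 were array controls. Only those with 1 gene were tested, the brightest probe set standing for its gene (12393 genes, no filter on dim genes). Groups came from the sample titles. The 6 arrays were fitted with limma 3.58.1 under R 4.3.3, using lmFit and eBayes with group as the only term, two-sided, and p-values were adjusted by Benjamini-Hochberg over all genes. The fit was tested on simulated data. Promoter sequences came from RefSeq (GRCm38.p6). Tables and plots used Python 3.11.15, pandas 2.3.3 and matplotlib 3.10.9.

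The members and the 13 gene lists were chosen with earlier results of these data known, so the share of a list that was called is no test of that list. Named genes are all members, up to 3 risen and 3 fallen genes of each list with the smallest adjusted p, genes fixed in advance (Stat3, Jak1, Jak2, Tyk2, Socs3, Ptpn11, Adam17, Cebpb, Nfkbia, Zc3h12a, Osm, Clcf1, Cntf), and the 3 genes with profiles nearest to the called member with the largest difference. Further genes were named with their values in view. Alternatives covered probe set choice, dim genes (the dimmest 40% left out), scaling, variance model, replicate block, single arrays left out and the threshold.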

Additional observations from a re-analysis of the deposited data

How the results depend on the processing

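The rise of Lifr and the fall of Il6 kept their direction in all 16 alternatives run for each, and of these calls 1 was lost, that of Lifr when arrays were centred on the poly-A spike-ins (0.25). In some alternatives the difference itself could not change, so a kept direction says nothing there. These were the variance model, the replicate block, the stricter threshold and leaving out dim genes. For Il6, which has a single probe set, the choice of probe set could not change it either. The poly-A centring called 10181 genes, with 0 members higher and 5 lower. Centring on the hybridization spike-ins called 1 member higher and 3 lower, against 1673 of all genes higher and 6102 lower. Leaving out single arrays gave 1 to 2 members higher, 1 to 2 lower and 4541 to 5317 genes called. Tested singly, 8339 probe sets were called, 4 of them members' probe sets that were higher.

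Signs turned as follows. With the poly-A centring these were Lif (-0.27), Il6ra (-0.21), Il6st (-0.30), Jak2 (-0.24), Ptpn11 (-0.38), Nfkbia (-0.081), Zc3h12a (-0.40), Clcf1 (-0.34), Ptpn2 (-0.033) and Rhbdf1 (-0.068). With the hybridization spike-ins these were Lif (-0.033), Il6st (-0.056), Jak2 (-0.0004), Ptpn11 (-0.14), Zc3h12a (-0.16) and Clcf1 (-0.10). With the mean of probe sets these were Ptpn11 (-0.029), Clcf1 (-0.060) and Ptpn2 (-0.31). Without probe sets that can bind several transcripts, of the same gene or of others, it was Ptpn2 (-1.13). That setting dropped the brighter Ptpn2 probe sets, which were called higher (0.39 and 0.31). For Zc3h12a the sign turned with a further quantile normalization (-0.026) and centring on array medians (-0.021). Centring subtracts a shared value from every gene of an array, so these turns are not separate evidence for each gene. The cause of the other turns was not tested.

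No effect shared by same-numbered arrays was seen: their deviations correlated at -0.0046, -0.022 and 0.0021. Whether the samples were paired by design cannot be read from these correlations, and the labels do not say. With the replicate number as a block 5274 genes were called, and the same counts of members, 1 higher and 1 lower.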
